A study of Bos taurus with 12 samples.

Results

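miR-143 and miR-145 are microRNAs (miRNAs, short RNAs that lower the output of matching mRNAs) cut from neighbouring hairpins. They were measured by small RNA sequencing in blood from 6 heat stressed and 6 heat resistant cows of the Chinese Holstein breed, 12 libraries in all. The study sorted the cows by a principal component analysis of body temperature and reduced milk output, so the groups differ in their response to heat and not in an experimental treatment. The labels give no age or treatment, nor which fraction of blood the RNA came from. The rows of the 2 miRNAs were found by name, with the species prefix, the arm of the hairpin, the copy number and the isoform suffix taken off. The rule found 6 names among the 1981 distinct names of the table, 2 for miR-143 and 4 for miR-145.

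Both hairpins belong to a single primary transcript that serum response factor and myocardin switch on in smooth muscle. In mice the pair is most abundant in smooth muscle and other mesenchymal cells, and its loss leaves vessel walls with thin, poorly contractile muscle. Known targets include the transcription factors KLF4 and KLF5 for miR-145 and ELK1 for miR-143, which hold smooth muscle in a proliferating state. In the RefSeq annotation of the cattle assembly ARS-UCD2.0 the genes MIR143 and MIR145 stand next to each other, within the long noncoding RNA entry LOC132345768.

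The libraries held 3992952 to 9813801 counts over distinct names, and heat resistant cow 3 had the lowest total. Markers of blood lineages were abundant. The red cell miRNAs miR-451, miR-144 and miR-486 summed to 26245 to 82286 CPM in heat stressed libraries, against 20217 to 97827 CPM in heat resistant ones. The hepatocyte miRNA miR-122 summed to 9327 to 45470.1 CPM in heat stressed libraries, against 18034 to 158453 CPM in heat resistant ones, with the 2 highest in heat resistant cows 1 and 2. CPM are counts per 1e+06 counts of a library, with totals adjusted by the TMM method of edgeR. The material is a mixture, so fewer cells of a type and less RNA per cell cannot be told apart, and no smooth muscle source was measured.

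The 4 forms that could be followed kept the same order of level in all 12 libraries, with miR-143 first, then miR-145, the 3' arm of miR-145 and the 5' arm of miR-143. The mature cattle miR-143, by background knowledge the 3' arm of its hairpin, ranked between 24 and 32 among all names in every library. Mature cattle miR-145, the 5' arm of its hairpin, ranked between 106 and 126. miR-143 with both its forms held 0.885 ± 0.125% of counts in heat stressed cows, against 0.933 ± 0.193% in heat resistant cows (SD, n = 6 each). miR-145 with all its forms held 0.0522 ± 0.00779% in heat stressed cows, against 0.0501 ± 0.00699% in heat resistant cows (SD, n = 6 each). Of the counts of both miRNAs together 94.6% belonged to miR-143, and the pair ranged from 0.710% to 1.26% of a library. These are read counts per form with no correction for length, since a mature miRNA is read whole, and differences in ligation between sequences were not tested.

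Mature miR-143 had 7684, 8784 and 10486 CPM as lowest, median and highest value in heat stressed cows, against 6649, 9668 and 11594 CPM in heat resistant cows. The heat stressed values all lay inside the heat resistant range, where cow 3 was highest and cow 2 lowest. Its means were 8837 ± 974 CPM in heat stressed cows, against 9212 ± 1788 CPM in heat resistant cows (SD, n = 6 each). The log2 fold change, heat stressed over heat resistant, was -0.06 ± 0.14 (SE; edgeR quasi-likelihood test, adjusted p = 0.856). The 95% interval of the fold ran from 0.782 to 1.18. The difference was smaller than the spread between cows, and its direction turned when heat resistant cow 3 (0.0071) or heat stressed cow 1 (0.0031) was left out.

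The 5' arm of miR-143, the strand that is mostly discarded, was listed under a goat name. It had 26.8, 43.2 and 46.7 CPM as lowest, median and highest value in heat stressed cows, against 33.7, 44.9 and 56.5 CPM in heat resistant cows. Heat stressed cow 5 lay below every heat resistant cow, and the other values overlapped. Its means were 40.0 ± 7.59 CPM in heat stressed cows, against 45.2 ± 7.83 CPM in heat resistant cows (SD, n = 6 each). The log2 fold change was -0.18 ± 0.17 (SE; edgeR adjusted p = 0.586), and the 95% interval of the fold ran from 0.686 to 1.14. Counts per library were 172 to 449, which makes this the least deeply counted of the 4 forms.

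Mature miR-145 had 399.6, 532 and 625.4 CPM as lowest, median and highest value in heat stressed cows, against 407, 499.5 and 586 CPM in heat resistant cows. Heat stressed cows 1 and 4 lay above every heat resistant cow and heat stressed cow 5 below them all, so the groups overlapped at both ends. Its means were 526 ± 89.1 CPM in heat stressed cows, against 497 ± 59.2 CPM in heat resistant cows (SD, n = 6 each). The log2 fold change was 0.08 ± 0.14 (SE; edgeR adjusted p = 0.795), and the 95% interval of the fold ran from 0.858 to 1.31. Its direction turned when a red cell ratio, that of miR-451 to miR-23a, was a covariate (-0.02).

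**Figure D1:**
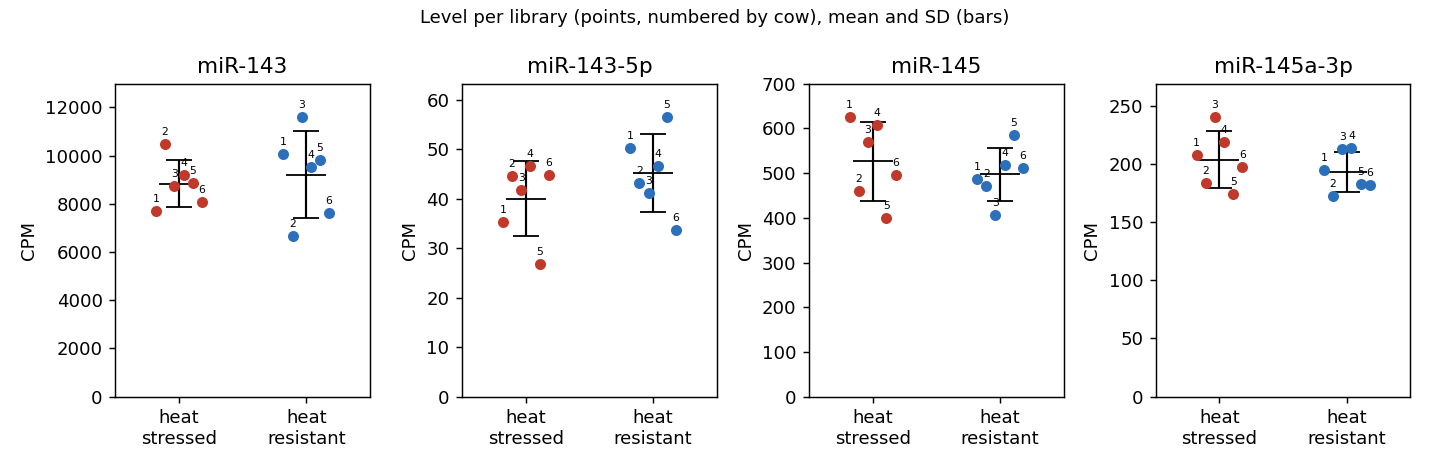
CPM of 4 forms of miR-143 and miR-145 in each library, on axes that start at 0. Points are cows numbered as in the labels, and bars are means with SD (n = 6 each). The heat stressed and heat resistant points overlap for every form.

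The other names of miR-145 were 3 isoforms listed under platypus names, all of the 5' arm. The form with a substitution, which stands on 2 rows with equal values, had counts in 8 of 12 libraries, up to 8.5 in heat stressed and up to 7.5 in heat resistant cows. The form with a longer left end had 5 counts in heat stressed cow 4 and was listed at 0 elsewhere. The form with a longer right end had 9 counts in heat stressed cow 3 and was listed at 0 elsewhere. Rows that hold only whole values rarely hold small ones: 99.8% of their nonzero entries reached 5, so a 0 may hide a few reads. These forms did not pass the filter on low counts, no fold was computed for them, and mature miR-145 held 99.9% of the counts of its miRNA.

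The 3' arm of miR-145 appeared only under the mouse name miR-145a-3p. The letter in that name puts it outside the name rule, so it is no member, and it was added for the comparison of arms after the names had been seen. It had 174, 203 and 240.4 CPM as lowest, median and highest value in heat stressed cows, against 173, 189 and 214 CPM in heat resistant cows. Heat stressed cows 3 and 4 lay above every heat resistant cow, and the other values overlapped. Its means were 204 ± 24.2 CPM in heat stressed cows, against 193 ± 17.2 CPM in heat resistant cows (SD, n = 6 each). The log2 fold change was 0.08 ± 0.13 (SE; edgeR adjusted p = 0.774).

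Of the 6 names, 3 passed the filter on low counts, and 0 of these had an adjusted p under 0.05 in edgeR, where 0% of the 756 features tested had one. At an unadjusted p under 0.05 the count was also 0 of 3, against 146 features, or 19.3%, in the whole table. DESeq2 called 54 features, or 7.14%, of which 0 were forms of miR-143 or miR-145. limma-voom called 0. In 8 features, or 1.06%, the groups did not overlap, and no form of miR-143 or miR-145 was among them. Larger absolute log2 fold changes than that of miR-143 were seen in 88.1% of features, and larger ones than that of miR-145 in 84.3%. For miR-143-5p the share was 67.5% and for miR-145a-3p 84.7%. The 756 features include many at only a few CPM, and the shares were not limited to features of similar level. A p that misses the threshold does not show equal levels: the intervals above leave room for a fall of miR-143 to 0.782-fold or a rise of miR-145 to 1.31-fold.

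**Figure D2:**
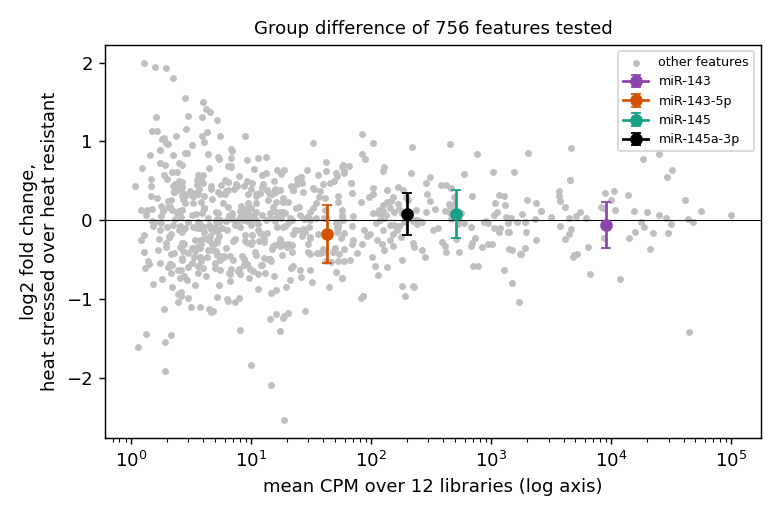
Log2 fold change, heat stressed over heat resistant, against mean CPM (log axis) for the 756 features tested, in grey, and for the 4 forms in colour with 95% intervals. The 4 intervals all include 0.

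The spread between cows was below the median of abundant features for both miRNAs. The SD of log2 CPM within groups was 0.23 for miR-143 and 0.22 for miR-145, against a median of 0.31 over the 204 features with a mean of at least 100 CPM. Counted from the least variable, miR-143 was at place 64 and miR-145 at place 52 of these 204. miR-145a-3p was at place 13, with an SD of 0.15. These places were not limited to features of similar level. Close to miR-143 in level, miR-27a-3p had an SD of 0.17 and miR-26b of 0.39. From the lowest to the highest library miR-143 differed by 1.74-fold, miR-145 by 1.57-fold and miR-143-5p by 2.11-fold.

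**Figure D3:**
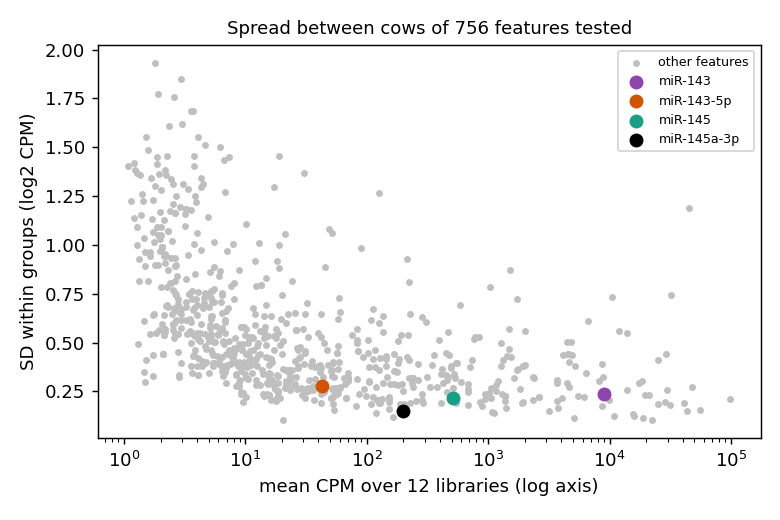
SD of log2 CPM within groups against mean CPM (log axis) for the 756 features tested, with the 4 forms in colour. miR-143 and miR-145 lie at 0.23 and 0.22, below the median of 0.31 over features with a mean of at least 100 CPM.

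Counts of miR-143 exceeded those of miR-145 by 17.7-fold in the geometric mean of the 12 libraries, from 12.3-fold in heat stressed cow 1 to 28.6-fold in heat resistant cow 3. Log2 ratios averaged 4.09 ± 0.35 in heat stressed cows, against 4.20 ± 0.37 in heat resistant cows (SD, n = 6 each). The difference was -0.12 (exact permutation, 2-sided, p = 0.578; adjusted over 3 ratios, 0.867), and without heat resistant cow 3 it was 0.0094. A ratio within a library does not depend on the library total.

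The 3' arm of miR-143 exceeded the 5' arm by 213-fold in the geometric mean, from 154-fold to 330-fold. The log2 ratio of the 5' to the 3' arm averaged -7.80 ± 0.30 in heat stressed cows, against -7.66 ± 0.30 in heat resistant cows (SD, n = 6 each; difference -0.14, exact permutation p = 0.433, adjusted 0.867). In miR-145 the arms were far less unequal. The 5' arm exceeded the 3' arm by 2.57-fold, from 1.91-fold in heat resistant cow 3 to 3.21-fold in heat resistant cow 5. It averaged 1.36 ± 0.15 on the log2 scale in heat stressed cows, against 1.36 ± 0.25 in heat resistant cows (SD, n = 6 each; exact permutation p = 1).

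**Figure D4:**
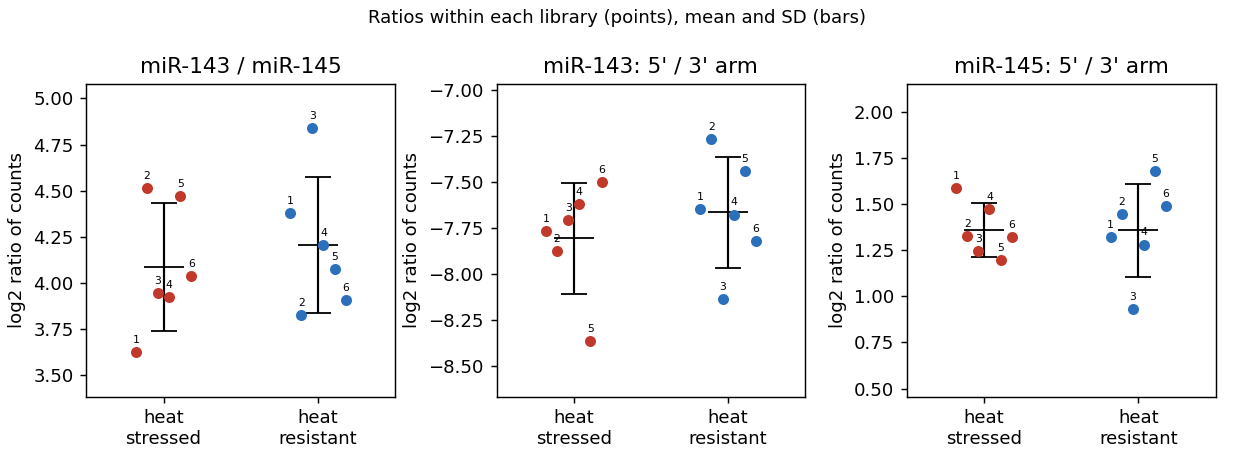
Log2 ratios of counts within each library for miR-143 over miR-145 and for the 5' over the 3' arm of each hairpin. Points are cows numbered as in the labels, bars are means with SD (n = 6 each), and the 3 axes span the same number of log2 units. Heat resistant cow 3 has the highest ratio of miR-143 to miR-145 and the lowest arm ratio of miR-145.

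Although they share a primary transcript, mature miR-143 and miR-145 were not seen to vary together from cow to cow. Pearson's r of the summed log2 CPM was -0.26 (permutation p = 0.402, adjusted over 5 relations 0.669) and Spearman's rho was -0.28 (permutation p = 0.377) over 12 cows. Within groups r was -0.39 in heat stressed cows, against -0.20 in heat resistant cows (exact permutation p = 0.457 and 0.717, n = 6 each). Without heat resistant cows 2 and 3, the farthest from the median of miR-143, r was -0.22 (permutation p = 0.535). These 2 cows moved r in opposite directions, to -0.45 without cow 2 alone and to -0.02 without cow 3 alone. CPM values of a library share its total and are not independent. Between the arms of a hairpin r was 0.34 for miR-143 and 0.44 for miR-145, over the same 12 libraries. Other pairs across the hairpins were positive too: 0.38 for miR-143-5p with miR-145, 0.28 for miR-143 with miR-145a-3p and 0.22 for miR-143-5p with miR-145a-3p. So the arms of a hairpin were not set apart from forms of the other hairpin, and these values of r were not tested.

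**Figure D5:**
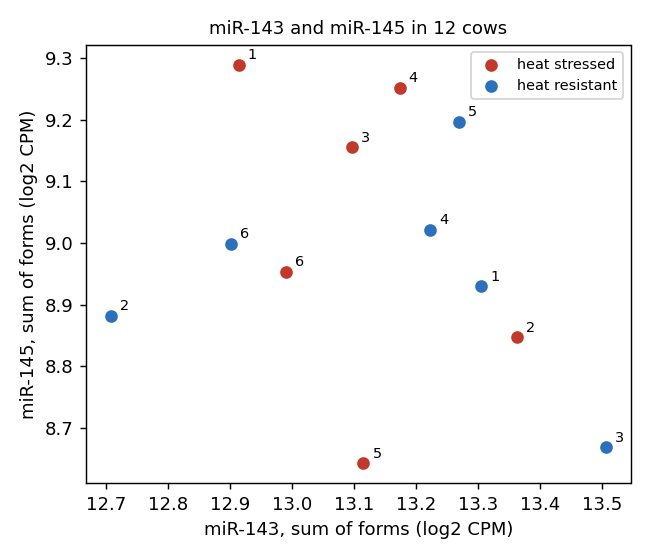
Summed miR-145 against summed miR-143, both in log2 CPM, in 12 cows numbered as in the labels. Heat resistant cow 3 has the highest miR-143 and nearly the lowest miR-145, and the points follow no common line (r = -0.26).

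No relation of either miRNA with the depth of the library passed the threshold. With the log2 library total r was -0.17 for miR-143 (permutation p = 0.599, adjusted 0.748; rho 0.11, permutation p = 0.733) and 0.43 for miR-145 (permutation p = 0.158, adjusted 0.406; rho 0.24, permutation p = 0.457). Heat resistant cows 3 and 4 had the library totals farthest from the median, and without both r was 0.39 for miR-143 and 0.14 for miR-145 (permutation p = 0.275 and 0.689). Without heat resistant cow 3 alone the value for miR-143 was 0.43 and that for miR-145 was 0.12, while without heat resistant cow 4 alone they were -0.26 and 0.46. Within groups r with the total was 0.43 in heat stressed cows, against -0.30 in heat resistant cows for miR-143, and 0.26 and 0.61 for miR-145 (exact permutation p from 0.158 to 0.626, n = 6 each).

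No relation with red cell miRNAs passed either. With the summed miR-451, miR-144 and miR-486 r was 0.43 for miR-145 (permutation p = 0.162, adjusted 0.406) and rho was 0.54 (permutation p = 0.0728, adjusted 0.364). Without heat resistant cow 4 and heat stressed cow 4, the farthest from the median of the red cell sum, r was 0.33 (permutation p = 0.351). Within groups r was 0.55 in heat stressed cows, against 0.31 in heat resistant cows (exact permutation p = 0.261 and 0.383, n = 6 each). For miR-143 r was 0.05 (permutation p = 0.873) and rho -0.03 (permutation p = 0.938), within groups 0.10 and 0.13 (exact permutation p = 0.874 and 0.844, n = 6 each), and without the same 2 cows -0.07 (permutation p = 0.837). Its sign turned without heat resistant cow 2 (-0.20), cow 4 (-0.02) or cow 6 (-0.02). The difference between the 2 miRNAs in this relation was not tested.

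The patterns most like that of miR-143 were looked up among 167 other cattle miRNAs with a mean of at least 100 CPM, by Pearson's r of log2 CPM over the 12 libraries, as a description. The nearest was let-7i, of the let-7 family that restrains proliferation, with r = 0.57. It was followed by miR-1839 (0.52), miR-499 of striated muscle (0.52), miR-224 (0.44) and miR-10a of the HOXB cluster (0.44). Leaving out 1 library moved the r of let-7i between 0.25 and 0.79, the lowest without heat resistant cow 2, and without that cow the r of miR-1839 was 0.29. Without heat resistant cow 3 the r of miR-499 was 0.35 and that of miR-10a was 0.26. The candidates ranged from -0.57 to 0.57, with a median of 0.07, and miR-145 would have stood at place 148.

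For miR-145 the nearest patterns were those of miR-15a (r = 0.60), the red cell miRNA miR-451 (0.58), miR-484 (0.55), the red cell miRNA miR-144 (0.55) and miR-15b (0.54). miR-15a and miR-15b share a seed and are known to repress BCL2. Leaving out 1 library moved the r of miR-15a between 0.47 and 0.68 and that of miR-451 between 0.49 and 0.69. The candidates ranged from -0.68 to 0.60, with a median of 0.07. All these points share library totals and scaling, and their extremes were picked out of 167.

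miRNAs that act in smooth muscle with or against miR-143 and miR-145 were nearly evenly split between higher and lower values. Of 12 such miRNAs, all found, 21 rows were tested, 11 higher and 10 lower in heat stressed cows with 0 called and a median log2 fold change of 0.02, where all 756 features had 376 higher and 380 lower and a median of -0.0019. miR-21-5p, which promotes smooth muscle growth, had a log2 fold change of 0.06 ± 0.12 (SE), and miR-221, which does so downstream of platelet-derived growth factor, of -0.16 ± 0.15 (SE). For miR-24-3p it was 0.13 ± 0.10 and for miR-26a -0.34 ± 0.18 (SE). Some less abundant rows lay further from 0 in both directions, with 0.92 for miR-31, 0.77 for miR-1 and -0.53 for miR-204. The smallest edgeR adjusted p of the list was 0.0973.

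Rows of stromal miRNAs, typical of fibroblasts and other mesenchymal cells, were 7 higher and 5 lower with 0 called (median log2 fold change 0.03). All stromal rows summed to 6169.7 to 10016 CPM in heat stressed libraries, against 6899.5 to 10421 CPM in heat resistant ones. The most abundant, miR-10b, stood at 2140.3 ± 632 CPM in heat stressed cows, against 2557 ± 386 CPM in heat resistant cows (SD, n = 6 each). miR-99a-5p and miR-100 held the same values, so their reads cannot be assigned to either, and both count among the lower rows. Over the 12 rows tested r with miR-143 ran from -0.56 to 0.62 and r with miR-145 from -0.38 to 0.48.

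Striated muscle miRNAs were 4 higher and 2 lower with 0 called (median log2 fold change 0.56), and miR-208a, of heart muscle, was not among the names found. Of these, miR-1 (0.77), miR-133a (0.50) and miR-133b (0.67) also belong to the smooth muscle list above and count as higher in both lists. All striated muscle rows summed to 339 to 1042 CPM in heat stressed libraries, against 269.9 to 1055 CPM in heat resistant ones. All 6 rows had a positive r with miR-143, from 0.42 to 0.54, and r with miR-145 ran from -0.42 to 0.06. Without heat resistant cow 3, which had the most miR-143, all r with miR-143 were lower. They were then 0.19 for miR-133a, 0.20 for miR-206, 0.26 for miR-1, 0.27 for miR-133b, 0.33 for miR-208b and 0.35 for miR-499. These rows share libraries and partly sequence, and the part of muscle RNA in the level of miR-143 was not tested.

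Among blood and liver lists, the first held miR-126, of endothelial cells and platelets, and miR-223, of platelets and other blood cells. Its rows were 5 higher and 1 lower (median log2 fold change 0.10), with 0.16 for miR-223 and -0.32 for miR-223-5p. miR-126-3p stood at 4472 ± 1819.6 CPM in heat stressed cows, against 4399 ± 745 CPM in heat resistant cows (SD, n = 6 each). Rows of the 3 red cell miRNAs were 8 higher and 0 lower (median 0.59), and rows of the 2 lymphocyte miRNAs 6 higher and 0 lower (1.005). Rows of miR-142 were 2 higher and 0 lower (0.48) and those of miR-122 0 higher and 3 lower (-1.17). Rows of 1 miRNA are its arms and isoforms in the same cows, so they are not independent. In each of these lists edgeR called 0 rows. The forms of miR-143 and miR-145, with log2 fold changes from -0.18 to 0.08, lay nearer to 0 than the medians of the red cell, lymphocyte, miR-142 and miR-122 lists. The medians of the miR-126 and miR-223 (0.10), stromal (0.03) and smooth muscle (0.02) lists also lay near 0. That of striated muscle was 0.56. The 2 muscle lists share miR-1, miR-133a and miR-133b, so their medians are not independent. None of these differences was tested.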

How the data were processed

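Per the labels' protocols, Trizol-extracted RNA went into TruSeq small RNA libraries, and the authors cleaned the reads with ACGT101-miR of adapters, junk, other RNA classes and repeats. Aligner, miRBase version and build were not given in the sources used here. Although the protocol mentions 9 libraries, the table holds 12, all used. The deposited table gives expected counts per row, per the file headers (raw). It also holds normalized columns, a signal that the authors made as 1 constant (0.692 to 1.70) times the raw values of each library, used only in an alternative with limma on log2(value + 1). The 202 repeat rows of the 2183 were counted once. No pair of libraries shared more than 0.956% of its values, over rows of 50 counts or more.

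Counts were rounded and tested with edgeR 4.0.16 in R 4.3.3. The settings were filterByExpr with minimum count 10, TMM, robust quasi-likelihood F test and Benjamini-Hochberg over 756 features at 0.05. SE is the log2 fold change over the root of F. DESeq2 1.42.0 and limma 3.58.1 were alternatives. The procedure was tested on simulated data. Ratios used a pseudocount of 0.5 and all 924 splits, relations 100000 permutations with scipy 1.17.1, and patterns log2 CPM with a prior count of 2. Members, marker lists and tests were chosen with earlier results of these data known, so they are no independent support. All names of the 2 miRNAs are reported, along with the 5 most alike cattle miRNAs of each and up to 4 abundant rows of a list. Each library is taken as 1 cow; intervals cover counting error and spread between these cows, and reads carried no molecular identifiers that the sources mention.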

Additional observations from a re-analysis of the deposited data

How the results depend on the processing

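No form of miR-143 or miR-145 was called in any setting in which it was tested: 14 other settings for miR-143 and miR-145, 13 for miR-143-5p and miR-145a-3p, which carry no cattle name, and 12 fits without 1 library for each. Over these, log2 fold changes ran from -0.16 to 0.0071 for miR-143, -0.31 to -0.06 for miR-143-5p, -0.020 (red cell ratio as covariate) to 0.18 for miR-145 and 0.0012 to 0.14 for miR-145a-3p. The number of features called in the whole table moved from 0 to 54 with DESeq2, 11 with no filter, 16 with a minimum count of 50, 13 with repeat rows summed and 8 with the replicate block. Without 1 library it ran from 0 to 97, with 97 without heat resistant cow 4, 29 without heat stressed cow 2 and 2 without heat resistant cow 5; the cause was not tested. No label pairs the libraries that share a number between groups. Deviations of same-numbered libraries correlated from -0.05 to 0.27, over 0.1 in 2 of 6 pairs, and 6 of 12 libraries correlated best with their own number. No chance level was computed for these counts, so whether equal numbers share anything was not tested. With the replicate block the log2 fold changes were -0.04 for miR-143 and 0.07 for miR-145, and the log2 ratio of the miRNAs differed by -0.12.

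Without 1 library, the difference in the log2 ratio of miR-143 to miR-145 ran from -0.20 to 0.0094, in the arm ratio of miR-143 from -0.24 to -0.03 and in that of miR-145 from -0.085 to 0.064, where the most abundant rows alone gave -0.00060 against 0.00027. Cattle names alone give no arm ratio. Without 1 library r of miR-143 with the total ran from -0.32 to 0.43, with red cell miRNAs from -0.20 to 0.25, and with miR-145 from -0.45 to -0.02. Leaving out heat resistant cows 1 and 2 together, an alternative chosen after the data were seen, as were the relations without 1 library, gave r = -0.11 of miR-143 with red cell miRNAs. The platypus-named isoforms, with at most 9 counts in a library, were too shallow to compare.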
